A study of Mus musculus with 12 samples.

Results

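The DEAD and DEAH box RNA helicases of the mouse oocyte were followed through meiotic maturation with and without the RNA demethylase ALKBH5. Their genes were chosen by symbol alone, as Ddx or Dhx followed by a number and at most 1 letter, leaving out Ddx6. The rule found 52 of the 56691 genes in the table, 36 named Ddx and 16 named Dhx, and all 52 are protein coding in the annotation. DEAD and DEAH box proteins use ATP to unwind short RNA duplexes, to strip proteins from RNA or to clamp onto it, and between them they serve nearly every step in the life of an RNA, from ribosome assembly and splicing to export, translation, storage and decay. A fully grown oocyte has stopped transcribing and lives on stored maternal mRNA, much of which is translated or degraded as meiosis resumes. Several of these helicases, such as the germ cell marker DDX4, work directly on stored transcripts.

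The libraries held RNA of oocytes from wild-type (WT) and Alkbh5-/- (KO) mice. The KO is a total knockout that lacks exon 1 of Alkbh5 with the start codon, so every tissue of the female lacks the enzyme, and no other allele or agent separates the genotypes. Oocytes came from juvenile females primed with the gonadotropin PMSG and were cultured without milrinone, which holds them at the germinal vesicle (GV) stage. They were taken as GV oocytes, after germinal vesicle breakdown (GVBD) or at metaphase II (MII), with 2 libraries in each of the 6 groups. Stages were set by time in culture, and whether each KO oocyte was checked to have reached its stage was not stated. The study reports that in culture most KO oocytes did not pass GVBD and few released a first polar body, unlike WT. At GVBD and MII, a genotype difference and a difference in the stage reached therefore cannot be told apart. The study calls the pairs of libraries biologically independent, each library was a small pool of oocytes, and the pool size is given differently in different places of the study.

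Each library held 28557742 to 40247810 counts, of which the helicases took 0.132% to 0.231% of the endogenous part. Counts were divided by the library's summed counts of ERCC spike-in RNAs, which were added to each tube, relative to the mean of the 12 libraries, and these spike-in scaled counts are the values printed unless another scale is named. Such a value tracks RNA per tube, so fewer oocytes in a tube and less RNA per oocyte cannot be told apart. The libraries were made from polyadenylated RNA, so loss of an mRNA and loss of its poly(A) tail cannot be told apart either. The targeted gene had 5355 to 10181 raw counts of Alkbh5 in the 6 WT libraries and 54 to 143 in the 6 KO libraries. The 6 oocyte markers summed to at least 204135 scaled counts in every library, and the 8 granulosa and cumulus markers to at most 2753. The 6 cardiac muscle markers summed to 19841 to 42286 in the GV and GVBD libraries and to 1748 to 9670 at MII. Tnni3 made up most of the sum except in WT MII. There Tnni3 had 2056 and 2036 raw counts and Myh6 2785 and 1378. Myh6 had 1 to 13 raw counts in WT GV replicate 1, KO GVBD replicate 1 and both KO MII libraries, against 895 to 2785 in the other 8 libraries. The part of these markers in the helicase values was not tested. KO MII replicate 2 stood apart: it held the fewest genes with a count (19837), and it was the lowest of the 12 libraries for 35 of the 51 helicases compared. In it 50 of 51 helicases were below KO MII replicate 1, by a median of 3.02-fold, whereas in the other groups the median ratio of replicate 1 to replicate 2 lay between 0.982 and 1.69. Several medians and call counts that rest on it are therefore given with and without it. Values of single genes and counts of libraries that do not overlap include it unless stated.

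The family takes its name from motif II, the ATP-binding stretch whose 4 residues are Asp-Glu-Ala-Asp in DEAD box proteins and Asp-Glu-Ala-His in DEAH box proteins. In the longest GENCODE M21 coding sequences (build GRCm38), 27 genes encode the first, 9 the second, and 16 encode other residues there or had no match to the search. The windows below are coding and show motif II in capitals, 5′ to 3′ on the gene's own strand, for the genes on which the results turn. The capitals lie within 1 exon in each.
Ddx18 (chr1:121561339-121561350, minus strand, exon 6, DEAD): ctggttattGATGAGGCTGACcgtatcttg
Ddx3x (chrX:13289408-13289419, plus strand, exon 11, DEAD): ctggtgttaGATGAAGCTGACcggatgtta
Ddx4 (chr13:112612097-112612108, minus strand, exon 17, DEAD): ttagttttgGATGAAGCTGATcgaatgttg
Ddx24 (chr12:103417769-103417780, minus strand, exon 5, DEAD): ctggtcataGATGAAGCTGATcgcatggtt
Ddx20 (chr3:105683454-105683465, minus strand, exon 4, DEAD): tttattcttGATGAAGCAGATaagctttta
Dhx16 (chr17:35885508-35885519, plus strand, exon 10, DEAH): gtgatggtgGATGAAGCTCACgagcggacc
Ddx39 (chr8:83721110-83721121, plus strand, exon 5, other): tttgtgctaGATGAATGTGACaagatgctg
Ddx39b (chr17:35247090-35247101, plus strand, exon 4, other): tttattttgGACGAGTGTGACaagatgctt
Ddx28 (chr8:106010558-106010569, minus strand, exon 1, other): atagtgctaGATGAAGTAGACacactgcta
Dhx58 (chr11:100703238-100703249, minus strand, exon 4, other): attgtggtgGACGAGTGTCACcacacccac
The coordinates are those of the capitals. Ddx39 and Ddx39b are shown together because their coding sequences share 81.5% of aligned bases and yet, as described below, their RNAs took different courses.

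The helicases were well represented in the store of maternal RNA. All 52 had a count in some library, 45 had at least 10 raw counts in every library and 30 at least 100, while 5 were at 0 somewhere. On the scale of scaled counts per kilobase of exon, 42 of the 52 (80.8%) lay above the median of the 25163 genes with a count in WT GV, which was 28.35. Ddx18 stood far above the others in WT GV at 6733 ± 1821 (SD, n = 2) per kilobase, followed by Ddx3x at 1665 ± 35.4. Ddx18, whose product acts in the assembly of the large ribosomal subunit, lies at chr1:121553835-121567989. Next came Ddx56 at 589 ± 90.2 per kilobase, Ddx28 at 499 ± 0.778 and Ddx27 at 405 ± 165. The ranges of Ddx28 and Ddx27 overlapped between the libraries, so their order is not set. At the other end, Ddx43, a germ cell helicase, had 4 raw counts in WT GV replicate 1 and 0 in the other 11 libraries and was removed by the filter on low counts. Ddx3y had 7 to 56 raw counts in every library although it lies on the Y chromosome, which oocytes lack. Its coding sequence matches that of the X-linked Ddx3x over 84.6% of aligned bases with identical runs of up to 35 bases, and the origin of these counts was not tested.

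**Figure D1:**
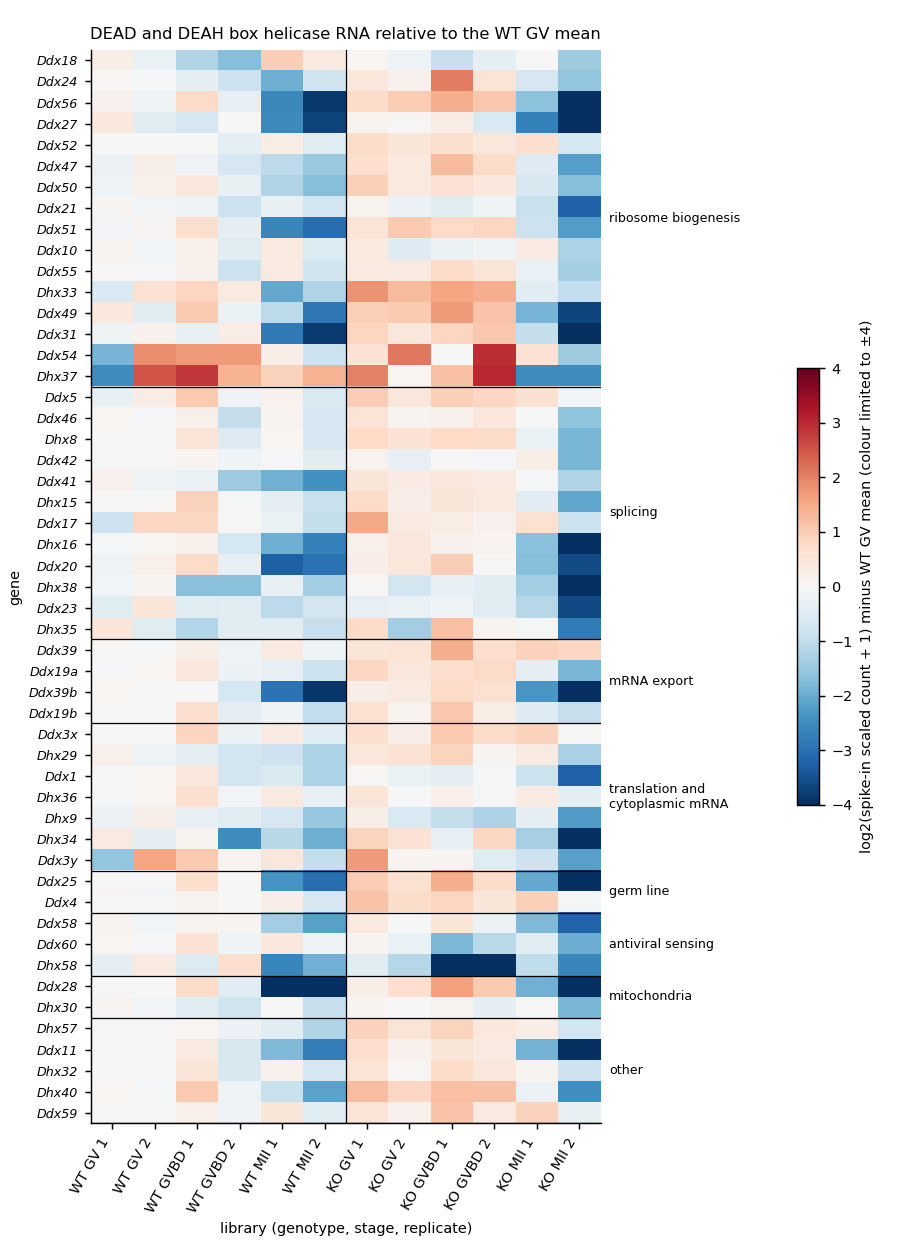
Helicase RNA in each of the 12 libraries (columns) for the 51 genes compared (lines, grouped by role), as log2(spike-in scaled count + 1) minus the mean of the 2 WT GV libraries, with the colour limited to 4 on either side. The MII columns hold most of the deep blue, KO MII replicate 2 is the bluest column, and Ddx18 in the top line is red in both WT MII libraries and blue in all 4 GVBD libraries.

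The loss of maternal RNA during maturation was read from MII against GV in WT. Of the 51 helicases tested, 16 fell (31.4%) and 0 rose, where a gene counted as changed if it passed an adjusted p of 0.05 (edgeR quasi-likelihood test, Benjamini-Hochberg over all genes) and a 2-fold change. Of all 18816 genes tested, 30.5% fell and 0.393% rose. The median log2 fold change of the helicases was -0.85, against -1.06 for all genes, and 28 of the 51 stayed within 2-fold of no change. The share of helicases that fell was thus close to that of all genes, and the values within the family ranged from -4.19 to 0.67. The scaled counts of the MII libraries lay wholly below those of the GV libraries for 31 of 51 helicases (53% of all genes) and wholly above them for 1, Ddx18 (3.97%).

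Among the 16 ribosome biogenesis helicases, which act in the nucleolus, 7 fell in WT and the median log2 fold change was -1.27. Ddx27, Ddx56 and Ddx51 were among the deepest losses. Ddx56 had 1653 and 1330 scaled counts in the WT GV libraries, 2526 and 1176 at GVBD, then 246 and 101 at MII. Its MII values lay far below both earlier stages, and its log2 fold change from GV to MII was -3.11 ± 0.55 (SE; edgeR adjusted p = 2.17e-07). Ddx27 went from 2509 and 1388 at GV to 317 and 141 at MII (-3.09 ± 0.54, edgeR adjusted p = 1.83e-07). Ddx51 changed by -2.84 ± 0.63 and the scarcer Ddx31 by -3.52 ± 1.27. Ddx24, Ddx47 and Ddx50 fell less, with log2 fold changes of -1.27, -1.27 and -1.45. The members that did not pass included Ddx52 (-0.04 ± 0.50), Ddx10 (-0.02 ± 0.54) and Ddx21 (-0.52 ± 0.52), a helicase of rRNA transcription and processing whose close relative Ddx50 shares 74.0% of its aligned coding bases.

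Per kilobase of exon, Ddx18 was the highest of the helicases in 11 of the 12 libraries and Ddx3x in WT GVBD replicate 1. In WT, Ddx18 was lowest at GVBD and highest at MII. It had 19915 and 13522 scaled counts at GV, 7091 and 5094 at GVBD, then 32133 and 21077 at MII. The 3 WT stages do not overlap, and GVBD is the low point. At MII it made up 46.9% and 48.2% of all helicase counts in WT, against 10.2% and 12.4% at GVBD. The change from GV to GVBD was -1.46 ± 0.38 and did not pass (edgeR adjusted p = 0.341), nor did GV to MII, at 0.67 ± 0.45 (0.273). From GVBD to MII, a comparison added after the data were seen, Ddx18 rose by 2.13 ± 0.63 on the log2 scale (edgeR adjusted p = 0.00475). It was the only helicase of 51 that rose there, where 0.682% of all genes rose, and 14 others fell, where 27.1% of all genes fell. TMM scaling gave 6 higher and 8 lower helicases, and 1902 higher and 3014 lower among all 19211 genes. Without WT GVBD replicate 1, WT GVBD replicate 2 or WT MII replicate 1, in turn, Ddx18 kept log2 fold changes of 2.38, 1.91 and 1.79 but no longer passed (edgeR adjusted p = 0.182, 0.23 and 0.067). In KO the same gene had 17495 and 14291 scaled counts at GV, 8653 and 12904 at GVBD, then 16564 and 6151 at MII. In KO, too, both GVBD libraries lay below both GV libraries, with a change of -0.56 ± 0.29 that did not pass (edgeR adjusted p = 0.708). The KO MII libraries overlap both earlier stages, and the GVBD to MII change was 0.08 ± 0.68.

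Of the 12 splicing helicases, 3 fell in WT with a median of -0.74 for the group: Ddx20, which is part of the SMN complex that assembles spliceosomal particles, Ddx41 and Dhx16, which remodels the spliceosome. Ddx20 had 174 and 230 scaled counts at GV, 341 and 158 at GVBD, then 20 and 25 at MII in WT, with a GV to MII change of -3.16 ± 0.74 (edgeR adjusted p = 0.000175). Dhx16 changed by -2.29 ± 0.62 and Ddx41 by -2.17 ± 0.56. The abundant Ddx5 had 1761 and 2689 scaled counts at GV and 2429 and 1430 at MII, which overlap. Its paralog Ddx17 had 225 and 723 at GV and 335 and 207 at MII, so its GV libraries already differed more than the stages did.

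Of the 4 export helicases 1 fell, and its close relative did not pass. Ddx39b, the export and splicing factor also known as UAP56, had 1121 and 1007 scaled counts at GV, 1055 and 659 at GVBD, then 136 and 71 at MII in WT. Its loss at MII amounted to 10.2-fold between the group means and -3.36 ± 0.57 on the log2 scale (edgeR adjusted p = 7.36e-08). Ddx39 had 1125 and 1045 at GV, 1289 and 943 at GVBD, then 1404 and 962 at MII. These values overlap at every stage, with a GV to MII change of 0.12 ± 0.50. Per kilobase of exon, Ddx39b stood at 296 and 266 in the WT GV libraries, above Ddx39 at 218 and 203, and at MII it stood at 36.0 and 18.9, below Ddx39 at 272 and 187. The difference between the genes was not tested. Of the exon bases of Ddx39, 17.4% also lie in the gene Adgre5 on the opposite strand, and the use of strand in counting is not given in the sources used here. Ddx19a and Ddx19b, which release mRNA at the nuclear pore, had log2 fold changes of -0.58 ± 0.50 and -0.50 ± 0.55. Their coding sequences match over 93.6% of aligned bases with an identical run of 275 bases, so unique mapping can drop or misplace part of their reads.

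Of the 7 helicases of translation and cytoplasmic mRNA, 0 passed in WT, with a median log2 fold change of -0.88. Ddx3x, a translation factor for mRNAs with structured leaders, had 8653 and 8917 scaled counts at GV, 15957 and 7407 at GVBD, then 11125 and 6261 at MII. The stages overlap, and the change from GV to MII was -0.02 ± 0.46. Dhx36, which unwinds G-quadruplexes, gave 0.05 ± 0.51 and Dhx29, a helicase of the scanning ribosome, gave -1.05 ± 0.50 (edgeR adjusted p = 0.0944). Ddx1 gave -0.88 ± 0.50 and Dhx9, an RNA helicase of nucleus and cytoplasm, -1.07 ± 0.54.

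Of the germ line and mitochondrial helicases, 1 fell in each pair tested. Ddx4, the vasa homolog, had 838 and 798 scaled counts at GV, 897 and 824 at GVBD, then 988 and 512 at MII in WT, a GV to MII change of -0.13 ± 0.50. Ddx25, a helicase best known from spermatids, had 990 and 1029 at GV but 196 and 125 at MII (-2.65 ± 0.55, edgeR adjusted p = 1.7e-05). Ddx28, a factor of mitochondrial ribosome assembly encoded at chr8:106009621-106011882, showed the deepest loss of the family. It had 1127 and 1130 scaled counts at GV, 1860 and 818 at GVBD, then only 67 and 56 at MII, which is 18.3-fold lower than GV and -4.19 ± 0.59 on the log2 scale (edgeR adjusted p = 6.19e-11). Dhx30, the other mitochondrial member, had 561 and 485 at GV and 512 and 275 at MII and did not pass. Of the sensors of viral RNA, Ddx58 (RIG-I) fell by 1.73 ± 0.52 and Ddx60 had 411 and 374 at GV and 521 and 339 at MII. The remaining called genes were Ddx11, a DNA helicase of sister chromatid cohesion, at -2.19 ± 0.53, and Dhx40 at -1.39 ± 0.54.

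**Figure D2:**
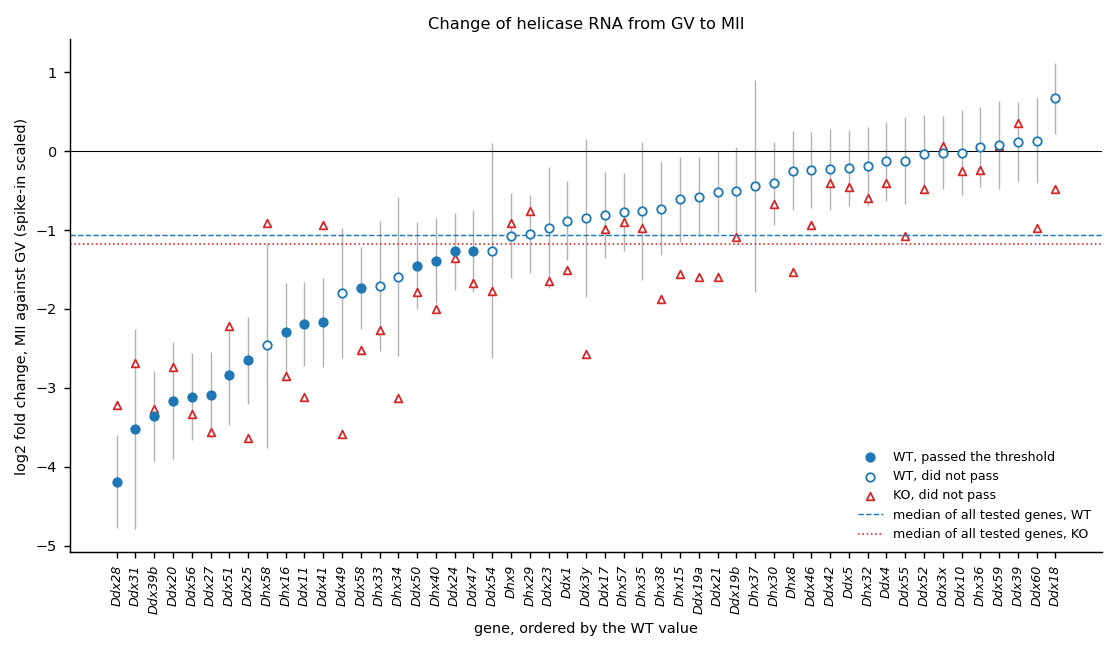
Log2 fold change from GV to MII for the 51 helicases tested in WT, ordered by the WT value (circles, bars are standard errors, filled where the gene passed), with the KO value as a triangle for the 50 tested in KO. The 16 filled circles run from Ddx28 at -4.19 to Ddx24 and Ddx47 at -1.27, and the dashed and dotted lines mark the medians of all tested genes at -1.06 in WT and -1.17 in KO.

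The number of calls depended on the GV libraries and on the scaling. Without WT GV replicate 1, and likewise without replicate 2, 7 of the 16 were still called, and they were the same 7: Ddx20, Ddx25, Ddx27, Ddx28, Ddx39b, Ddx51 and Ddx56. With TMM scaling, which uses the endogenous genes in place of the spike-ins, the median of all genes moved from -1.06 to -0.14 and that of the helicases from -0.85 to 0.09, with 28 of 51 positive. In that fit 13 helicases (25.5%) and 24.7% of all 18816 genes were called, with 3053 genes lower and 1593 higher. Of the 13, 10 were lower and were all among the 16, and 3 were higher: Ddx18 (1.58), Ddx39 (1.05) and Ddx60 (1.05). Ddx18, Ddx39 and Ddx60 were therefore higher relative to the rest of the transcriptome, while per spike-in their change did not pass. By motif II, 9 of 26 tested DEAD box genes (34.6%), 3 of 9 DEAH box genes (33.3%) and 4 of 16 others (25%) were called.

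In KO, 0 of 50 helicases passed from GV to MII, where 3.28% of all genes did, and 15 were lower at an unadjusted p under 0.05, which 24.6% of all genes had. The median was -1.52 for the helicases and -1.17 for all genes, 29 of the 50 were at least 2-fold lower, and 15 of the 16 that fell in WT were among genes at least 2-fold lower in KO. The median of all genes in KO was itself more than 2-fold lower. Those 16, picked by their fall in WT, had a median of -2.47 in WT and -2.71 in KO. The other tested helicases had medians of -0.50 and -0.96. Both KO MII libraries lay below both KO GV libraries for 34 of 51 helicases, among them all 16, and the share over all genes is not given here. Ddx39b had 1262 and 1364 scaled counts in the KO GV libraries and 210 and 62 at MII (-3.27 ± 0.82, edgeR adjusted p = 0.0552). Ddx28 had 1340 and 1796 at GV, 3544 and 2330 at GVBD, then 295 and 42 at MII (-3.22 ± 0.94, 0.0765 by the same test). Ddx25 had 2041 and 1549 at GV and 246 and 42 at MII (-3.64 ± 0.92, edgeR adjusted p = 0.0561). The KO MII pair differed widely in each of them. Without KO MII replicate 2, 14 helicases were called in KO, 12 of them also called in WT, and 16.9% of all genes were called. The median was then -0.89 for the helicases, against -0.80 for all genes. Without KO MII replicate 1, 41 helicases (80.4%) and 54.2% of all genes were called. DESeq2 called 12 helicases and 16.3% of all genes, and the fit with a replicate block 10 helicases and 13.1% of all genes.

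Whether maturation changed a helicase differently in the genotypes was tested as an interaction, the KO change minus the WT change from GV to MII. It called 0 of 51 helicases and 0 of 20807 genes (0%), and 0 helicases had an unadjusted p under 0.05 against 1197 genes (5.75%). The median of the helicases was -0.41 against -0.07 for all genes, which became 0.12 and 0.31 without KO MII replicate 2 and 0.04 and 0.36 without WT MII replicate 1, so the sign of the helicase median was not stable. In each of these fits it lay below the median of all genes, and with TMM scaling the medians were -0.41 and -0.03. The gap between them was not tested. The largest positive values among well counted genes were Ddx41 at 1.23 ± 0.78 and Ddx28 at 0.97 ± 1.03. Ddx41 had 752 and 599 scaled counts at WT GV and 175 and 125 at WT MII, against 930 and 838 at KO GV and 632 and 292 at KO MII. With standard errors near 1 in such genes, a 2-fold difference was not detectable with this number of libraries.

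Early maturation, GVBD against GV, moved few genes. In WT 0 of 51 helicases were called (0.0511% of all genes), and 2 had an unadjusted p under 0.05 (6.25% of all genes), Ddx18 and Dhx38. DESeq2 called 1, Ddx18 (1.9% of all genes). The median was 0.04. In KO 0 of 50 were called (0.22% of all genes), with 3 at an unadjusted p under 0.05, Ddx24, Ddx28 and Ddx60 (7.65% of all genes). DESeq2 called 0 in KO (1.18% of all genes). MII against GVBD, added after the data were seen, gave 14 lower helicases in WT, led by Ddx28 at -4.44 ± 0.79. In KO the same comparison called 8 of 49, all lower (7.12% of all genes): Ddx11, Ddx24, Ddx25, Ddx27, Ddx28, Ddx39b, Ddx49 and Ddx56. Of the WT and KO lists, Ddx11, Ddx25, Ddx27, Ddx28, Ddx39b, Ddx49 and Ddx56 were on both. Without KO MII replicate 2, KO GVBD replicate 1 or KO GVBD replicate 2, in turn, the KO count was 0. In the first of these fits 20 helicases were lower at an unadjusted p under 0.05, which 18.5% of all genes had in either direction. All these comparisons share libraries with those from GV to MII, so their values are given side by side only.

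**Figure D3:**
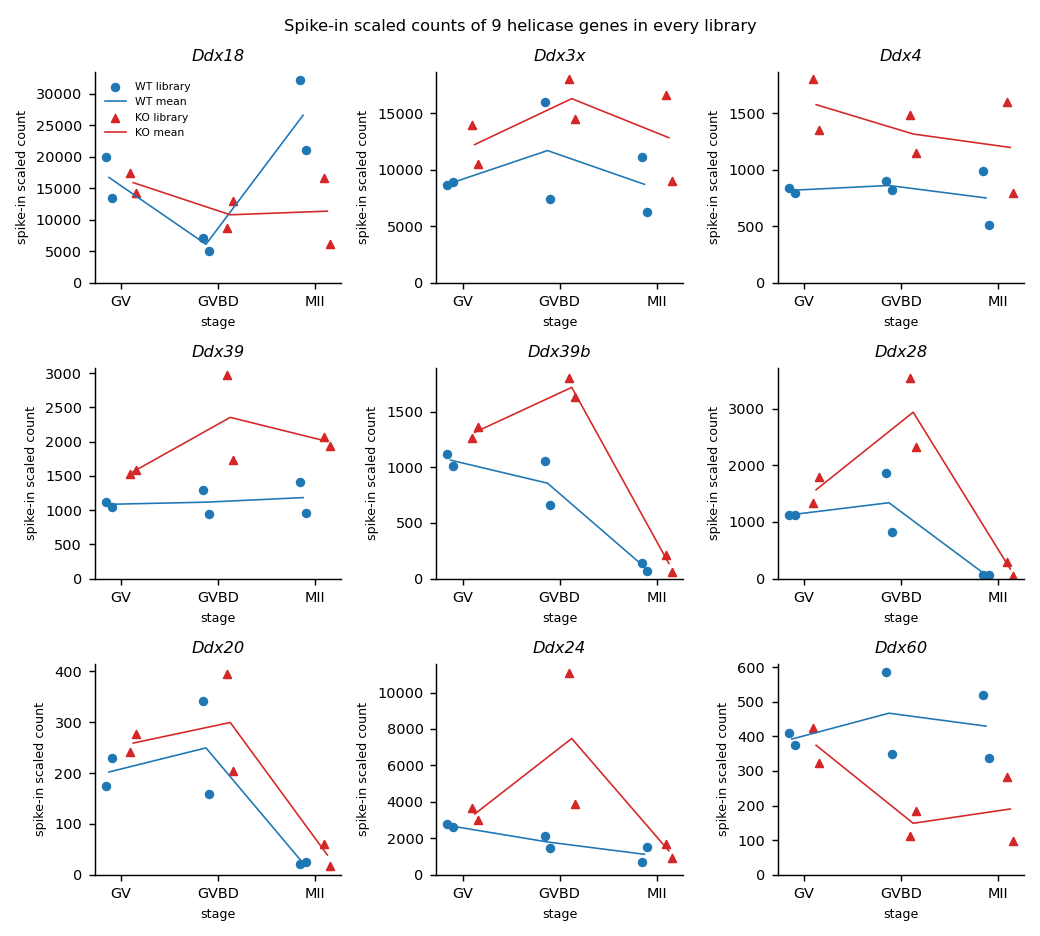
Spike-in scaled counts (vertical axis, from 0) of 9 helicase genes at GV, GVBD and MII, with each library as a point (WT circles, KO triangles) and lines through the group means. In both genotypes the MII points of Ddx39b, Ddx28 and Ddx20 lie below all GV points and those of Ddx3x overlap them, Ddx18 dips at GVBD and is highest at MII in WT, and at GVBD the WT and KO points of Ddx24 and of Ddx60 do not overlap.

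The effect of losing ALKBH5 was compared within each stage. At GV, 0 of 51 helicases were called (0.0977% of all genes), and 14 had an unadjusted p under 0.05 (17.9% of all genes), all of them higher in KO. DESeq2 called 1, Dhx40 (3.48% of all genes). Both KO libraries lay above both WT libraries for 32 of 51 (38.5% of all genes) and below them for 1, Dhx58 (9.7%). The median log2 fold change was 0.39, next to 0.36 for all genes, and with TMM scaling both medians were near 0 (0.03 and 0.00), with 4 helicases higher and 1 lower at an unadjusted p under 0.05. Ddx4 had 838 and 798 scaled counts in WT GV and 1802 and 1352 in KO GV (0.95 ± 0.24, edgeR adjusted p = 0.167), with every KO library higher. Dhx40 had 679 and 618 in WT and 1538 and 1141 in KO (1.05 ± 0.25, edgeR adjusted p = 0.163). Ddx56 and Ddx25 gave 0.89 ± 0.21 and 0.83 ± 0.23 and did not pass.

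At GVBD, 1 of 51 helicases was called, Dhx58 (2.54% of all genes). Dhx58, a regulator of RIG-I signalling also known as LGP2, had 15 and 54 raw counts in the WT GVBD libraries and 0 in both KO GVBD libraries. Against a floor of 3 counts per library it was at least 8.25-fold lower in KO (edgeR adjusted p = 0.0494). It was a scarce RNA at every stage, with 4 to 48 scaled counts in the 10 libraries other than KO GVBD, and it did not pass with TMM scaling, with the replicate block or without any of the 4 libraries in turn. Ddx60, another antiviral factor, had 586 and 349 scaled counts in WT GVBD and 113 and 184 in KO GVBD (-1.65 ± 0.60, edgeR adjusted p = 0.166). The WT and KO libraries do not overlap for Ddx60 at GVBD or at MII, where WT had 521 and 339 and KO 282 and 98, whereas at GV they do. Over all stages Ddx60 gave -0.97 ± 0.37 (edgeR adjusted p = 0.181) and passed with TMM scaling at -1.24 ± 0.26 (edgeR adjusted p = 0.0223). The 6 leukocyte markers were also lower in KO at GVBD, with sums of 9176 and 3883 scaled counts in WT GVBD and 559 and 872 in KO GVBD. Their sums were 668 to 3911 in the WT GV, WT MII and KO GV libraries and 318 and 656 in KO MII. No marker of the list was at 0 in any GVBD library, with Ptprc at 421, 348, 8 and 51 raw counts in the WT and KO GVBD libraries. The part of these markers in the values of Dhx58 and Ddx60 was not tested.

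The median of the helicases at GVBD was 0.58 against 0.23 for all genes, and 0.36 against -0.04 with TMM scaling. Both KO libraries lay above both WT libraries for 25 of 51 (27.4% of all genes). They lay below them for 4 (18.3%), which were Ddx3y, Ddx60, Dhx9 and Dhx58. Ddx24, a nucleolar helicase encoded at chr12:103407982-103425830, had 2095 and 1486 scaled counts in WT GVBD and 11061 and 3895 in KO GVBD. Every KO library was higher, the means differed 4.18-fold and the log2 fold change was 2.06 ± 0.58, just short of the threshold (edgeR adjusted p = 0.0606). DESeq2 called it (adjusted p = 0.00542), where 4.63% of all genes were called, and without KO GVBD replicate 1, the higher library, it was 1.12 ± 0.83. Ddx47, also of the nucleolus, had 817 and 569 in WT and 2167 and 1509 in KO (1.41 ± 0.53, edgeR adjusted p = 0.185). Ddx28 had 1860 and 818 in WT and 3544 and 2330 in KO (1.13 ± 0.55, 0.339 by the same test), again with no overlap.

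At MII, 0 of 50 helicases were called (0.803% of all genes) and 1, the scarce Dhx37, had an unadjusted p under 0.05 against 7.32% of all genes. DESeq2 called 0 (1.97% of all genes). The median was -0.13 against 0.30 for all genes. Without KO MII replicate 2 it was 0.61 against 0.70 and without WT MII replicate 1 it was 0.35 against 0.75, so the sign of the helicase median at MII was not stable. In each of these fits it lay below the median of all genes, and with TMM scaling the medians were -0.39 and 0. With TMM scaling 11 helicases were lower and 1 higher at an unadjusted p under 0.05 (18.7% of all genes). The gap between the medians was not tested. Both KO libraries lay above both WT libraries for 4 of 51 (20.4% of all genes), Ddx39, Ddx41, Ddx51 and Dhx33, and below them for 5 (11%): Ddx18, Ddx21, Ddx23, Ddx60 and Dhx37. For Ddx18, the KO values of 16564 and 6151 lay below the WT values of 32133 and 21077 (-1.23 ± 0.68, edgeR adjusted p = 0.78). Of counts on endogenous genes, Ddx18 took 0.109% and 0.111% in the WT MII libraries and 0.0467% and 0.0278% in the KO MII libraries. These shares do not use the spike-ins, and their difference was not tested. With TMM scaling and with median-of-ratios scaling 0 of 50 helicases were called at MII (0.245% and 0.0114% of all genes).

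**Figure D4:**
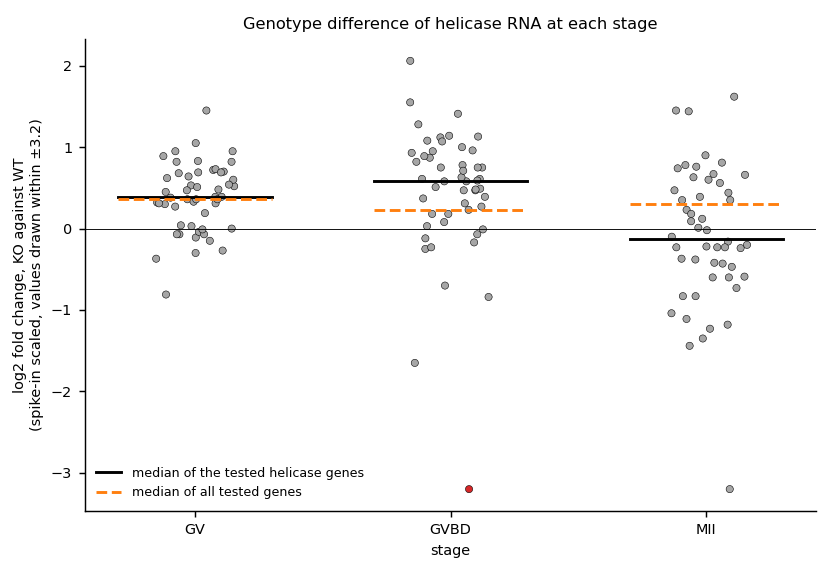
Log2 fold change of KO against WT (spike-in scaled) at each stage, with 1 point per tested helicase, black lines at the helicase medians and dashed lines at the medians of all tested genes. The helicase medians are 0.39, 0.58 and -0.13 at GV, GVBD and MII, the red point is Dhx58, and values beyond 3.2 are drawn at that limit (Dhx58 at GVBD and Dhx37 at MII).

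Over the 3 stages with stage in the model, 0 of 51 helicases were called (1.26% of all genes), 11 had an unadjusted p under 0.05 (18.8% of all genes), 10 of them higher in KO and 1 lower, and the median of 0.35 lay close to the 0.29 of all genes. With TMM scaling the medians were 0.02 for both, and of 15 helicases at an unadjusted p under 0.05, 8 were higher and 7 lower. DESeq2 called 2 (6.16% of all genes), Ddx41 and Dhx33. Ddx41, a splicing helicase, gave 1.05 ± 0.32 (edgeR adjusted p = 0.111) and Dhx33, of ribosomal RNA transcription, gave 1.08 ± 0.34 (edgeR adjusted p = 0.121). Without KO MII replicate 2, Ddx28 and Ddx56 were called, as were 3.84% of all genes.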

How the data were processed

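RNA of 12 oocyte libraries was analysed from the table of read counts per gene that the authors deposited, whole numbers with no normalization. Per the submitters' processing notes, whose versions differ from those the study gives elsewhere, the authors used cutadapt 1.9 for trimming and HISAT2 2.0.4 for alignment to GRCm38 with the ERCC sequences, kept uniquely mapped reads and assembled them with StringTie 1.3.4d. The extraction protocol in the labels describes another preparation than the methods. Use of strand is not given in the sources used here. Unique mapping lowers the counts of near-identical genes, and reads amplified by PCR without molecular identifiers are not independent molecules.

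Symbols matched 52073 of 56691 genes (91.9%). The summed counts of the 92 ERCC sequences served as relative library sizes. Genes kept by filterByExpr were tested with edgeR 4.0.16 (glmQLFit, glmQLFTest, two-sided, R 4.3.3) on the groups compared, and a gene was called at a Benjamini-Hochberg adjusted p under 0.05 over all tested genes with an absolute log2 fold change of at least 1. Alternatives were TMM and median-of-ratios scaling, no filter, DESeq2 1.42.0, a replicate block and fits without each library in turn. The fit was tested on simulated counts. MII against GVBD and the interactions around GVBD were added after the data were seen. Positions and transcripts are from GENCODE M21, and 14 of the 52 genes share exon bases with another gene. Motif II was located in translated coding sequences, and paralogs were aligned as coding sequences in place of proteins. Each gene was counted in 1 role.

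The members, roles and lists were chosen with earlier results of these data known. Genes named with values were those called between genotypes, the 5 highest per kilobase in WT GV, the 3 most changed called genes at each end from GV to MII and those listed by role. Genes called under only some alternatives, Ddx24, Ddx41, Ddx47, Dhx33 and Dhx40, and the other members that were called or did not overlap were named after their values were seen.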

Additional observations from a re-analysis of the deposited data

Results flagged for a closer look

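For 2 helicases the effect had opposite signs in different groups. Ddx18 was higher in both KO libraries than in both WT libraries at GVBD (log2 fold change 0.82) and lower in both at MII (-1.23). The difference, tested as the interaction of genotype with the step from GVBD to MII, was -2.05 ± 0.84 (edgeR adjusted p = 0.718) and did not pass. Ddx24 was higher in both KO libraries at GVBD than at GV (1.17) and lower in both WT libraries (-0.58). Its interaction with the step from GV to GVBD was 1.75 ± 0.63 (edgeR adjusted p = 0.523) and did not pass. Among all genes these interactions called 13 of 20765 and 2 of 21371.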

How the results depend on the processing

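Counts are of helicases called. The share of all genes called, in either direction, moved with the setting as well and is given beside them. Of the 16 called lower from GV to MII in WT, 10 were still called with either endogenous scaling, 15 with no filter, 16 by DESeq2 and 14 with the replicate block; leaving out a library gave 7 to 17 calls. From GV to MII in KO the count of 0 became 3 with TMM scaling, 3 with median-of-ratios scaling, 9 with no filter, 12 by DESeq2, 10 with the replicate block and between 0 and 41 without a library. From GVBD to MII in KO the 8 became 4, 3, 15 and 14 with TMM scaling, median-of-ratios scaling, DESeq2 and the replicate block, and 0 to 32 without a library; in WT the 15 became 3 without WT GVBD replicate 1, 7 without WT GVBD replicate 2, 6 without WT MII replicate 2 and 12 without WT MII replicate 1. KO against WT at GV gave 1 with no filter (2.27% of all genes) and 1 by DESeq2 (3.48%) in place of 0 (0.0977%). At GVBD the 1 (2.54% of all genes) became 0 with TMM scaling (0.149%), median-of-ratios scaling (0.19%) and the replicate block (1.1%). It became 2 with no filter (3.25%) and 2 by DESeq2 (4.63%), and it did not rise when 1 library was left out. Over all stages the 0 (1.26% of all genes) became 1 with TMM scaling (2.73%), 1 with median-of-ratios scaling (2.77%) and 1 with no filter (3.57%). It became 2 by DESeq2 (6.16%) and 1 with the replicate block (3.06%). The fit without KO MII replicate 2 is described above. From GV to GVBD the 0 became 1 in WT with no filter (1.8% of all genes) and by DESeq2 (1.9%). In KO the 0 became 1 with no filter (1.77%) and rose without KO GVBD replicate 2. No called helicase changed sign in any of these settings. The cause of these changes was not tested.

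Correlations of deviations between libraries with the same number ranged from -0.21 (KO against WT at GV) to 0.17 (WT MII against GVBD) over 9 comparisons, and 2 pairs a comparison do not show pairing, so the numbers were not taken as pairs; with crossed numbers 0 helicases were called at GV, of 218 genes, and 0 at MII, of 0 genes. With 2 libraries a group, scarce helicases such as Dhx37, Dhx34 and Ddx31 can be at 0 in 1 library and counted in the other. The results rest on spike-in scaling, on KO MII replicate 2 and on oocyte pools whose staging in KO was not stated.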

Other observations

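The DEAD and DEAH box genes are not the only RNA helicases of the oocyte. From a list of 21 other helicases of translation, decay, splicing and the germ line, 19 were tested from GV to MII in WT. Of these 0 rose (0.393% of all genes) and 2 fell (30.5% of all genes), with a median log2 fold change of -0.51 against -1.06 for all genes. Eif4a3, the helicase of the exon junction complex, changed by -2.31 ± 0.51 (edgeR adjusted p = 4.74e-05) and Skiv2l, of the cytoplasmic exosome, by -1.91 ± 0.64 (edgeR adjusted p = 0.0128). In KO, 1 of 20 fell (3.28% of all genes), again Eif4a3, by 3.1 ± 0.7 on the log2 scale (edgeR adjusted p = 0.0464). KO against WT called 0 of them by edgeR at each stage (0.0977%, 2.54% and 0.803% of all genes at GV, GVBD and MII).

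Cytoplasmic polyadenylation elements near the end of an mRNA are known to steer the translation and tail length of maternal transcripts. The letters TTTTAT or TTTTAAT, on the mRNA strand, stood in the last 100 bases of the longest coding transcript of 3395 of 19100 protein-coding genes (17.8%) and of 14 of 50 helicases (28%). They stood in 3 of the 16 helicases that fell in WT from GV to MII: Ddx25, Ddx47 and Ddx50. They also stood in 10 of the 33 other tested ones: Ddx1, Ddx10, Ddx18, Ddx3x, Ddx4, Ddx46, Ddx60, Dhx35, Dhx36 and Dhx38. A match describes these letters in this window and is no evidence of a working element.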
